A study of Mus musculus with 6 samples.

Results

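The Zeb, Snail and Twist factors are 6 transcription factor genes, Zeb1, Zeb2, Snai1, Snai2, Twist1 and Twist2, taken by gene symbol from a table of read counts for 31319 genes. All 6 were found, and 5 had enough reads to be tested, Twist2 being the exception. The table comes from polyadenylated RNA of the main olfactory epithelium, the nasal tissue in which odorants are detected, of male C57BL/6 mice aged 5 months. The study set 3 libraries of mice with a knockdown of miR-200b/a (KD) against 3 libraries of a group labelled NC, whose columns are headed Control. The sources used here do not give how the microRNAs were lowered, in which cells, or what the NC mice received. Libraries are called KD-1 to KD-3 and NC-1 to NC-3, and values of a group are listed in that order. The labels do not say that each library came from its own animal, so p-values measure only how far these libraries spread, and that spread may be technical.

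The 6 factors repress genes of epithelial cells and are best known for driving the epithelial-to-mesenchymal transition, in which cells lose their junctions and become motile. Zeb1 and Zeb2 are zinc finger proteins with a homeodomain, Snai1 (Snail) and Snai2 (Slug) are zinc finger proteins with a repressor motif at the amino terminus, and Twist1 and Twist2 are basic helix-loop-helix proteins. Zeb and Snail proteins bind E-box sequences in the promoters of genes such as Cdh1, which encodes the junction protein E-cadherin. The miR-200 family of microRNAs lowers Zeb1 and Zeb2 by pairing with their 3′ untranslated regions (UTRs), and Zeb proteins in turn repress the miR-200 genes, so that each side holds the other in check. In healthy tissue the factors are found mainly outside the epithelium, in fibroblasts and other mesenchymal cells, and Zeb2 also in macrophages and other immune cells and in glia.

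Pairing by a microRNA rests on its seed, nucleotides 2 to 8, shown in capitals for the mature 3p arms of the family (RefSeq, GRCm38.p6), since the seed defines which sites were searched for in the 6 genes.
miR-200b-3p: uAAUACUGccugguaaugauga
miR-200c-3p: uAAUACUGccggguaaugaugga
miR-429-3p: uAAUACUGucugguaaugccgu
miR-200a-3p: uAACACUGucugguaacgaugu
miR-141-3p: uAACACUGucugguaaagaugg
The first 3 share a seed and are called the miR-200b type here, and the last 2 share another, called the miR-200a type. The knocked-down pair, miR-200b and miR-200a, therefore holds 1 of each type. Matching sites read CAGTATT for the miR-200b type and CAGTGTT for the miR-200a type when written as DNA on the strand of the gene.

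Zeb1 and Zeb2 carried more such sites than almost any other gene. Over the longest annotated 3′ UTR of 18978 protein-coding genes in the table, 13.9% held at least 1 match of the miR-200b type and 18.1% of the miR-200a type. Zeb1 held 5 and 4 of these in 2401 bases, and Zeb2 held 5 and 4 in 4941 bases. Their total of 9 was exceeded by 1 gene model, D10Wsu102e, with 15 matches in an annotated UTR of 122583 bases. Among 2798 UTRs of 1921 to 3001 bases 0.0357% had as many matches as Zeb1, and among 1043 of 3953 to 6169 bases 0.0959% had as many as Zeb2, each share being the gene itself. Snai1 held 1 match of the miR-200b type, Snai2 held 1 of each type, and Twist1 and Twist2 held none in 700 and 1885 bases. A match is a description of letters, and no pairing was measured here.

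The 9 matches of Zeb2 (minus strand, GRCm38) show how densely they lie, and those of Snai1 and Snai2 (plus strand) are set beside them. Capitals mark the match, and the number after the gene is its distance in bases from the stop codon.
Zeb2 209, miR-200a type, chr2:44988357-44988378: gcaaaaattttgtaCAGTGTTa
Zeb2 393, miR-200b type, chr2:44988173-44988194: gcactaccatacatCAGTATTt
Zeb2 458, miR-200b type, chr2:44988108-44988129: gcactacagtgcatCAGTATTa
Zeb2 741, miR-200a type, chr2:44987825-44987846: gtgccatccttgtaCAGTGTTc
Zeb2 782, miR-200a type, chr2:44987784-44987805: ctttgcaccagcttCAGTGTTa
Zeb2 820, miR-200b type, chr2:44987746-44987767: tgaagcacccgtgtCAGTATTa
Zeb2 905, miR-200b type, chr2:44987661-44987682: ttcattaattttgtCAGTATTa
Zeb2 1039, miR-200b type, chr2:44987527-44987548: catactgtagtgtaCAGTATTa
Zeb2 4163, miR-200a type, chr2:44984403-44984424: catcagaaggactgCAGTGTTt
Snai1 196, miR-200b type, chr2:167542265-167542286: agcctcctacccctCAGTATTc
Snai2 11, miR-200a type, chr16:14708297-14708314: gtggcgcaacCAGTGTTt
Snai2 427, miR-200b type, chr16:14708709-14708730: ttcaaccaaaggaaCAGTATTt
In Zeb2 all but the last lay between 209 and 1039 bases after the stop codon. In Zeb1 the 9 matches were spread from 303 to 1685. An A directly after the match, which makes the strongest canonical kind of site, followed 4 of the 5 matches of the miR-200b type and 2 of the 4 of the miR-200a type in Zeb2. In Zeb1 it followed 3 of 5 and 0 of 4, and in Snai1 and Snai2 none.

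**Figure D1:**
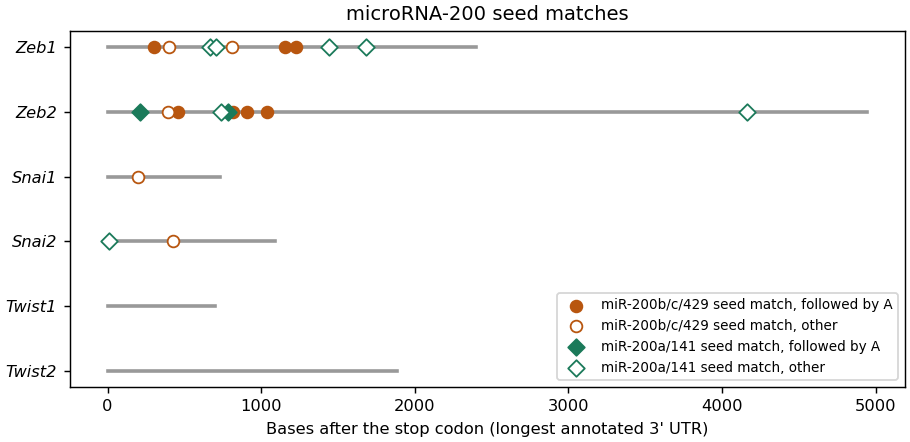
Position of each seed match along the longest annotated 3′ UTR of the 6 genes, in bases after the stop codon; grey lines show the length of the UTR, circles the miR-200b type and diamonds the miR-200a type, filled where an A follows. Zeb1 and Zeb2 hold 9 matches each, Snai1 holds 1, Snai2 holds 2 and the Twist genes hold none.

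Total counts per library lay between 15704791 and 17618540. At the targeted loci, Mir200a had 54, 3 and 52 counts in KD against 200, 87 and 84 in NC, and Mir200b had 10, 0 and 28 against 76, 54 and 47. No KD library reached an NC library at either locus, but neither passed the test across all genes (edgeR adjusted p = 0.31 and 0.29). Such reads come from longer transcripts and leave the mature microRNAs unmeasured. Of the other family loci, Mir200c had 0, 1 and 6 counts in KD against 10, 2 and 6 in NC. Mir141 had 0, 0 and 0 against 0, 0 and 1. Both were too low to be tested, and Mir429 was not among the genes counted. KD-2 and NC-1 stood at the ends of the first principal component, which held 67.8% of the variance. The defining marker of mature olfactory neurons, Omp, had 24302, 149 and 33430 counts in KD against 69388, 66437 and 61926 in NC. All KD libraries lay below all NC libraries, and KD-2 held almost none of this neuronal transcript. Omp did not pass the test across all genes either (edgeR adjusted p = 0.45). Below, a level is given in counts per 1000000 with TMM normalisation (CPM), and a difference as the log2 fold change of KD over NC from edgeR's quasi-likelihood fit. Across 18444 tested genes 0% passed an adjusted p of 0.05 in either direction. An unadjusted p below 0.05 was reached by 17.9%, with 8.7% higher and 9.25% lower.

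Of the 5 tested members, Zeb2, Snai1 and Snai2 were higher in all 3 KD libraries than in any NC library, while Zeb1 and Twist1 stood at nearly the same level in both groups. Over all tested genes the groups did not overlap for 33.9%, with KD higher for 15.3% and lower for 18.6%. None of the 5 passed the adjusted threshold in edgeR, where no gene did (smallest adjusted p = 0.28). An unadjusted p below 0.05 was reached by 2, Zeb2 and Snai1. DESeq2 called 1 of them, Zeb2, where 1.89% of genes were called, 0.821% higher and 1.07% lower. The median log2 fold change of the 5 was 0.53, against 0.0072 over all tested genes.

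**Figure D2:**
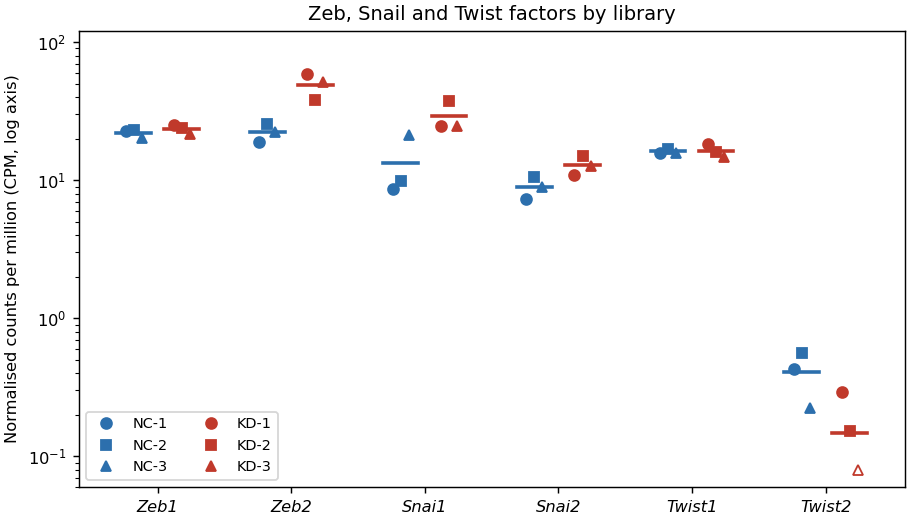
CPM (log axis) of the 6 genes by library, NC in blue and KD in red, with horizontal lines for the means over 3 libraries; the open triangle marks 0 counts. The KD values of Zeb2 lie between 37.8 and 58.6 and all exceed the NC values, while those of Zeb1 and Twist1 overlap.

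Zeb2 (ENSMUSG00000026872; chromosome 2, 44983632 to 45117395, minus strand, GRCm38) had 1004, 494 and 928 counts in KD and 309, 502 and 396 in NC. Scaled for library size, these were 58.6, 37.8 and 51.1 CPM against 19.1, 25.6 and 22.2 CPM. KD-2, the library poor in neuronal RNA, was the lowest of the KD libraries, yet above the highest NC library. The group levels were 49.2 ± 10.5 and 22.3 ± 3.29 CPM (SD, n = 3 each). The fitted log2 fold change was 1.14 (SE 0.21), or 2.21-fold. Its unadjusted edgeR p was 0.0014, 62nd among the 18444 genes in order of p, and its adjusted p was 0.28. DESeq2 gave a log2 fold change of 1.12 (SE 0.273) with adjusted p = 0.0081. In the authors' deposited table Zeb2 has a log2 fold change of 1.12 and an unadjusted p of 5.6e-05.

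Zeb1 (ENSMUSG00000024238; chromosome 18, 5591860 to 5775467, plus strand) had 25.3, 23.9 and 21.8 CPM in KD and 22.7, 22.9 and 20.2 CPM in NC. The groups overlapped, and the means of 23.7 ± 1.77 and 21.9 ± 1.53 CPM (SD, n = 3 each) differed by about the spread within a group. The log2 fold change was 0.11 (SE 0.139, edgeR adjusted p = 0.64). With library totals alone as the scale, its log2 fold change was -0.045, so its direction is not fixed.

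A ratio of the paired genes within a library does not depend on how libraries are scaled. Zeb2 had 2.32, 1.58 and 2.35 counts for each Zeb1 count in KD, against 0.84, 1.12 and 1.1 in NC. As a share of the pooled Zeb1 and Zeb2 counts, Zeb2 took 69.9% (95% exact interval 67.4 to 72.2), 61.3% (57.8 to 64.7) and 70.1% (67.6 to 72.6) in KD, against 45.6% (41.8 to 49.5), 52.8% (49.6 to 56) and 52.4% (48.8 to 56) in NC. The intervals cover counting error only, since reads carry no molecular identifiers, and none of the KD intervals reached an NC interval. On the log2 scale, with 0.5 added to each count, the KD mean was 1.04 ± 0.323 and the NC mean 0.015 ± 0.232 (SD, n = 3 libraries each), which differ by 1.02. The exact permutation test gave two-sided p = 0.1, the smallest that 3 against 3 can give, and 0.3 after adjustment over the 3 gene pairs tested.

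**Figure D3:**
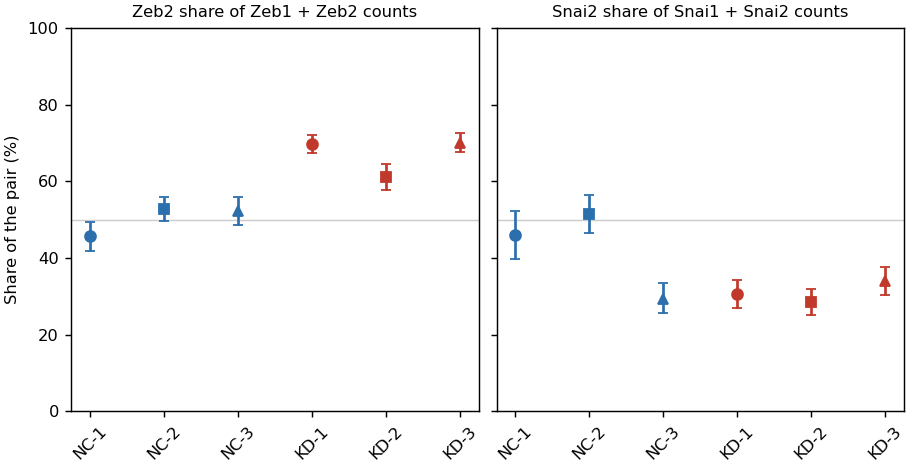
Share of Zeb2 in the Zeb1 and Zeb2 counts (left) and of Snai2 in the Snai1 and Snai2 counts (right) in each library, in percent, with 95% exact intervals for counting error. The Zeb2 share is 61.3% or more in KD and 52.8% or less in NC, while the Snai2 share of NC-3 lies among the KD libraries.

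Snai1 (ENSMUSG00000042821; chromosome 2, 167538195 to 167542814, plus strand) had 24.8, 37.7 and 24.7 CPM in KD and 8.63, 9.86 and 21.4 CPM in NC. KD-2 was the highest of all libraries, and NC-3 lay far above the other NC libraries and close to KD-1 and KD-3. The groups did not overlap, at 29 ± 7.48 and 13.3 ± 7.05 CPM (SD, n = 3 each). The log2 fold change was 1.13 (SE 0.399), or 2.18-fold, with an unadjusted edgeR p of 0.029 and an adjusted p of 0.28. It was 1.65 without NC-3, 0.89 without NC-1, and 0.68 when KD-2 and NC-1 were left out together. DESeq2 did not call it (adjusted p = 0.14).

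Snai2 (ENSMUSG00000022676; chromosome 16, 14705852 to 14709385, plus strand) had 10.9, 15 and 12.7 CPM in KD and 7.34, 10.5 and 8.91 CPM in NC. The groups did not overlap but KD-1 and NC-2 nearly touched, and the order within KD was again headed by KD-2. The means were 12.9 ± 2.08 and 8.91 ± 1.57 CPM (SD, n = 3 each). The fitted log2 fold change was 0.53 (SE 0.23, edgeR adjusted p = 0.28), which was 0.31 when KD-2 and NC-1 were left out together. The log2 ratio of Snai2 to Snai1 counts was -1.16 ± 0.184 in KD and -0.47 ± 0.705 in NC, and the groups overlapped at NC-3. The two-sided exact permutation test gave p = 0.3, with adjusted p = 0.3.

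Twist1 (ENSMUSG00000035799; chromosome 12, 33957671 to 33959829, plus strand), a regulator of cranial mesenchyme, had 18.2, 16.1 and 14.7 CPM in KD and 15.9, 17 and 15.8 CPM in NC. The lowest and the highest value were both in KD. Its log2 fold change of 0.01 (SE 0.158, edgeR adjusted p = 0.97) took the opposite sign under RLE size factors, library totals alone and DESeq2, at -0.016, -0.14 and -0.016.

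Twist2 (ENSMUSG00000007805; chromosome 1, 91801461 to 91848028, plus strand), a close relative of Twist1 in skin and connective tissue, had 5, 2 and 0 counts in KD and 7, 11 and 4 in NC. These were too few for the filter on low counts. Per total counts, the 7 KD counts against 22 NC counts gave 0.32 times the NC level (exact 95% limits 0.115 and 0.775, counting error only). The libraries of the 2 groups overlapped. Without the filter, edgeR gave a log2 fold change of -1.42 with adjusted p = 0.51, and the log2 ratio of Twist2 to Twist1 counts did not separate the groups (exact permutation test, two-sided p = 0.2, adjusted p = 0.3).

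Annotated genes on the opposite strand overlap exons of 3 members. Zeb2os had between 0 and 5 counts per library, Gm29100, opposite Twist2, between 1 and 10, and Gm10125, opposite Zeb1, between 7 and 63. No source used here gives the strand setting of the counting, so reads of these pairs cannot be told apart. Beside Zeb2 and Zeb1 the counts of the partners were small, while those of Gm29100 were of the same order as those of Twist2, being lower in 4 of 6 libraries.

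Levels of different genes were compared per kilobase of annotated exons. In NC, Twist1 stood at 9.95 ± 0.401 CPM per kilobase and Snai1 at 8.21 ± 4.35, with overlapping libraries. Snai2 followed at 4.41 ± 0.775, Zeb1 at 2.14 ± 0.149, Zeb2 at 1.12 ± 0.165 and Twist2 at 0.128 ± 0.0537 (SD, n = 3 each), and none of these neighbours overlapped. In KD the order was Snai1 at 17.9 ± 4.62, Twist1 at 10 ± 1.1, Snai2 at 6.36 ± 1.03, Zeb2 at 2.47 ± 0.528, Zeb1 at 2.3 ± 0.172 and Twist2 at 0.0468 ± 0.046, with Zeb1 and Zeb2 overlapping. Zeb1 and Zeb2 have long models with many isoforms, and with the longest transcript as length they stood at 3.78 ± 0.263 and 2.44 ± 0.361 CPM per kilobase in NC, where Zeb1 overlapped with Snai2.

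Markers of other cell types moved with the groups, and in bulk tissue fewer cells of a type and less RNA per cell cannot be told apart. As the share to set beside the counts here, 15.3% of all tested genes were higher and 18.6% lower without overlap. All 10 markers of mature olfactory neurons had a log2 fold change below 0 (median -1.80), 9 of them without overlap. Of these 10 markers, 1 was lower at an unadjusted edgeR p below 0.05, against 9.25% of all tested genes. The summed level of the neuron markers was 3493, 72.5 and 4357 CPM in KD against 11788, 8843 and 7427 CPM in NC. It was lower in each KD library and lowest by far in KD-2. Of 6 markers of sustentacular cells, the supporting cells of this epithelium, 4 were lower without overlap, while 2 were above 0 with overlapping groups. Their sums overlapped, at 5926 to 10815 CPM in KD against 10348 to 11656 in NC. All 6 T cell markers were above 0, 4 without overlap. All 8 macrophage markers had a log2 fold change above 0, 4 with groups that did not overlap, and their summed level was 299 to 501 CPM in KD and 114 to 255 in NC. Of the 8 endothelial markers 7 were above 0 and 6 did not overlap, with sums of 253 to 394 against 116 to 222 CPM. Fibroblast markers stayed closer, with 7 of 10 above 0, 5 higher and 1 lower without overlap, and sums of 887 to 945 against 803 to 938 CPM. All 6 horizontal basal cell markers were higher without overlap. Sums for ensheathing and Schwann glia were 114 to 140 CPM against 147 to 209, with 8 of 9 markers below 0. At an unadjusted edgeR p below 0.05, 5 horizontal basal cell, 6 endothelial, 4 macrophage, 3 fibroblast and 1 T cell markers were higher (8.7% of all tested genes). At the same threshold 0 sustentacular, 1 fibroblast and 3 glia markers were lower (9.25% of all). KD-2 had the highest and NC-1 the lowest macrophage and endothelial sums, as did Snai1 and Snai2. Zeb2 was likewise lowest in NC-1, but highest in KD-1. The part of these cell types in the members' values was not tested.

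Fold changes were also fitted with such a marker level added to the model. The mean log2 CPM of fibroblast markers was 5.90, 6.07 and 5.97 in KD against 5.56, 5.70 and 5.78 in NC. The neuron means and the macrophage and endothelial sums did not overlap either. With 6 libraries such fits therefore cannot separate the group from the marker level, and their values are a description only. With the mean of the macrophage or of the endothelial markers as a covariate, both chosen after the data were seen, the log2 fold change of Zeb2 was 1.13 (SE 0.35) and 1.21 (SE 0.34), close to the 1.14 without it. For Snai1 it was 0.21 (SE 0.417) and 0.15 (SE 0.331), and for Snai2 0.18 and 0.16. With the fibroblast markers it was 1.32 for Zeb2, -0.23 for Snai1 and -0.064 for Snai2, and with the mature neuron markers 1.39, 0.72 and 0.33. No gene passed the adjusted threshold in any of these fits, and the difference between Zeb2 and the Snail genes was not tested. Per 1000 CPM of macrophage markers, Zeb2 stood at 158, 75.5 and 171 in KD and 167, 122 and 87 in NC, which overlap. Per 1000 CPM of endothelial markers Zeb2 stood at 202, 95.9 and 202 against 164, 147 and 100, which overlap too. Per 1000 CPM of fibroblast markers it stood at 62.1, 42.7 and 55.4 against 20.3, 28 and 27.6, which do not. Snai1 overlapped per CPM of each of these lists. Snai2 overlapped per CPM of macrophage and endothelial markers. Per 1000 CPM of fibroblast markers it did not, though KD-1 at 11.5 nearly touched NC-2 at 11.4.

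**Figure D4:**
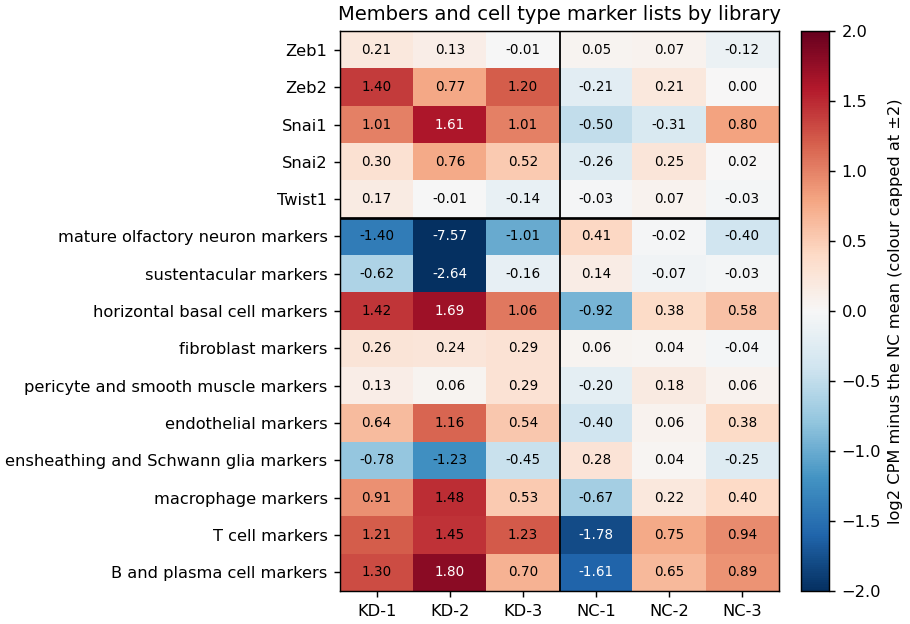
Difference in log2 CPM from the NC mean for the 5 tested members and, below the line, the median over the tested genes of each cell type marker list, by library. Zeb2 is highest in KD-1 at 1.40, whereas Snai1 and Snai2, like the macrophage and endothelial lists, are highest in KD-2.

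**Figure D5:**
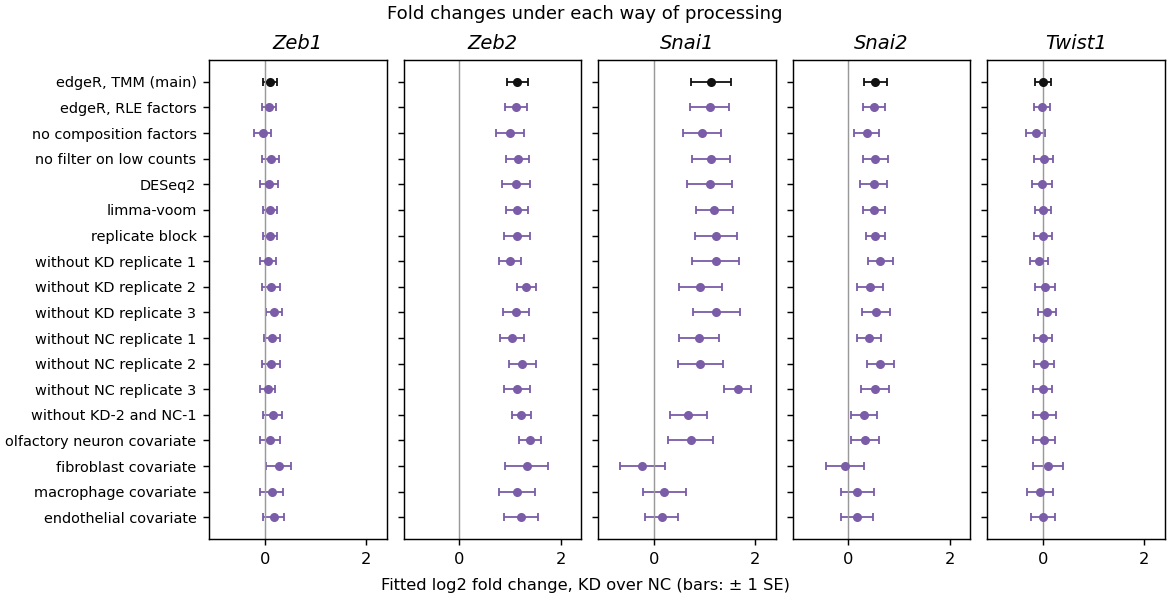
Fitted log2 fold change of KD over NC, with bars of 1 standard error, for the 5 tested members under each way of processing (rows). Zeb2 stays between 0.998 and 1.39, Zeb1 and Twist1 stay near 0, and Snai1 and Snai2 lie nearer 0 with fibroblast, macrophage or endothelial covariates.

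Epithelial genes, a class that these factors repress, stood mostly above the NC level in KD. Of 28 epithelial genes of junctions, polarity and epithelial identity, 26 had a log2 fold change above 0, with a median of 0.48, and 17 had KD values above all NC values (15.3% of all tested genes did), none below. None passed the edgeR threshold, 11 were higher at an unadjusted p below 0.05 (8.7% of all tested genes were), and DESeq2 called 1, Mal2. Cdh1 had 583, 519 and 441 CPM in KD and 318, 384 and 402 in NC, so that the groups did not overlap, with more E-cadherin transcript in KD. Its log2 fold change was 0.48 (SE 0.204, edgeR adjusted p = 0.28). Mal2, a transport protein of polarised epithelia, stood at 90.9 ± 23.5 against 42 ± 8.27 CPM, and Grhl2, a transcription factor that maintains epithelial identity, at 65.5 ± 5.31 against 47 ± 7.41. Dsp, the desmosomal plaque protein desmoplakin, stood at 149 ± 13.1 against 112 ± 5.84 CPM (SD, n = 3 each). The 2 genes of the list below 0 were Grhl1 and Llgl2, at log2 fold changes of -0.44 and -0.16, both with overlapping groups. The horizontal basal cell markers moved with this list, and their part in it was not tested.

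The promoter sequence of Crb3 shows the E-boxes that these repressors are known to bind (RefSeq, GRCm38.p6, plus strand, 250 bases before to 50 after the annotated start), with each CAGGTG or its reverse complement CACCTG in capitals.
Crb3, chr17:57061951-57062250: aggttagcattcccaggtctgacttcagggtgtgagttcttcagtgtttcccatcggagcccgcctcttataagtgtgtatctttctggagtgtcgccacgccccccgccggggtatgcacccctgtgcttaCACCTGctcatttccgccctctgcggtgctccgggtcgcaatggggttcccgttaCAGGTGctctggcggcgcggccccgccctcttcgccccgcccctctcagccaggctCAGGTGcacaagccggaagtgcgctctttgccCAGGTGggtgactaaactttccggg
This window holds 4 matches, a number that 0.0629% of 27025 genes with such windows reach. Of the 28 epithelial genes, 16 had a window and 14 of those held at least 1 match, against 22.6% of all genes. The list was drawn up as genes that these factors repress, so this share is no independent result. Crb3, a polarity protein of the apical membrane chosen here for its matches, had 22.8, 31.7 and 23.3 CPM in KD and 18.2, 16.3 and 26.3 in NC. Its groups overlapped, and its log2 fold change was 0.35 (SE 0.242, edgeR adjusted p = 0.40). Among the members with a window, Snai1 held 1 match, and Zeb2, Twist1 and Twist2 held none.

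Genes of mesenchymal cells were mostly, but not uniformly, above the NC level. Of 20 tested genes 15 had a log2 fold change above 0 (median 0.19), with 6 higher and 2 lower without overlap (15.3% and 18.6% of all tested genes), 5 higher at an unadjusted p below 0.05 (8.7% of all) and none past the edgeR threshold. Vim, the intermediate filament vimentin, stood at 398 ± 38.6 against 246 ± 49.3 CPM, Fn1, the matrix protein fibronectin, at 181 ± 35 against 119 ± 8.21, and Mmp2, a matrix metalloproteinase, at 181 ± 17.6 against 132 ± 3.25 (SD, n = 3 each). The genes lower without overlap were Cdh2, which encodes N-cadherin, and Spock1, a matrix proteoglycan. Their fold changes were larger in size than those of Vim, Fn1 and Mmp2, but so were their standard errors. Itga5, higher without overlap, had a log2 fold change of 1.34 (SE 0.503), larger in size than that of Cdh2. Cdh2 stood at 33.4, 7.81 and 43.6 CPM in KD against 78, 64.7 and 52 in NC, a log2 difference of -1.20 (SE 0.581, edgeR adjusted p = 0.30). Spock1 stood at 104, 1.69 and 159 CPM against 346, 244 and 213, a log2 difference of -1.60 (SE 1.22, edgeR adjusted p = 0.44). Both were lowest in KD-2, as the mature neuron markers were, whose part in these values was not tested.

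Partner proteins and corepressors had a median log2 fold change of 0.093 as a list, with 15 of 25 above 0. Among them 7 were higher and 3 lower without overlap, against 15.3% and 18.6% of all tested genes. The higher share was thus above the background, and the lower share was no larger than it. At an unadjusted p below 0.05, 5 were higher and 1 lower, against 8.7% and 9.25% of all, and none passed the edgeR threshold. The lower genes were the corepressor Ctbp1, the chromatin remodeller Smarca4 and Id4. Limd1, a LIM domain protein that acts with Snail, stood at 50.3 ± 3.97 against 35.4 ± 2.07 CPM. Id proteins hold back the partners of Twist by binding them without contacting DNA. Id1 and Id2 were higher without overlap, at log2 fold changes of 0.73 and 0.59, as was Id3, at 75.8 ± 3.6 against 55.7 ± 6.36 CPM. Id4 stood at 30.7 ± 18.8 against 122.5 ± 32.8 CPM (SD, n = 3 each) and was lowest in KD-2. Its log2 fold change was -1.997, which DESeq2 called (adjusted p = 0.029).

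Of 28 genes for upstream signals and for the stability of the factors, 22 were above 0 (median 0.25), 11 were higher without overlap (15.3% of all tested genes were) and none lower. None passed the edgeR threshold, 8 were higher at an unadjusted p below 0.05 (8.7% of all), and DESeq2 called 1, Nfkb1. Nfkb1, a subunit of the inflammatory factor NF-κB, stood at 160 ± 21.8 against 73.8 ± 24.6 CPM. Tgfbr2, a receptor for TGF-β, a classic inducer of the factors, stood at 190 ± 33 against 105 ± 26.2, and Notch1 at 46.9 ± 7.33 against 29.8 ± 5.93 (SD, n = 3 each).

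Of 13 tested relatives and other factors of the same transition, 11 were above 0, with none at an unadjusted edgeR p below 0.05. Without overlap 1 was higher and 1 lower, against 15.3% and 18.6% of all tested genes. Foxc1 stood at 43.3 ± 8.44 against 30.2 ± 6.91 CPM, with overlapping groups. Scrt1, a neuronal relative of the Snail genes, stood at 2.4 ± 1.03 against 4.7 ± 1.07, without overlap. Snai3, the remaining Snail gene, was low throughout, at 0.88 ± 0.303 against 0.68 ± 0.151 CPM (SD, n = 3 each).

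The genes whose log2 CPM over the 6 libraries were most like each tested member were sought among 15154 protein-coding genes with a mean of at least 1 CPM. With 6 libraries many genes score high by this measure, Pearson's coefficient, so the names are a description only. For Zeb2 they were Cdca8, a component of the chromosomal passenger complex, Gnb4, a G protein subunit, and Fanci, a DNA repair protein, at 0.991, 0.984 and 0.983. For Snai1 they were Yipf1, Chid1 and the translation factor Eif3d, at 0.998, 0.998 and 0.995. For Snai2 they were Kdr, the VEGF receptor of endothelial cells, at 0.998, Abhd4 at 0.995 and Brpf3 at 0.992. For Zeb1 they were Mtdh, Ugt1a6a and Tgfbr3, the TGF-β co-receptor betaglycan, at 0.991, 0.988 and 0.986, and for Twist1 Tbl1xr1, Fopnl and Tipin at 0.987, 0.982 and 0.974. Without KD-2, the genes named for Zeb2 held ranks 10, 34 and 37 and those for Zeb1 ranks 13, 14 and 15, so which genes come first depends on that library. Kdr for Snai2 and Tbl1xr1 for Twist1 still ranked 1. Coefficients over 0.95 were reached by 452 genes for Snai1, 170 for Snai2, 52 for Zeb1, 48 for Zeb2 and 4 for Twist1.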

How the data were processed

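The authors deposited 1 table with raw read counts per gene and library, per the file headers, together with their own mean normalised count (a signal value), and with a log2 fold change and a p-value before adjustment. For GRCm38, the submitters' processing notes list HTSeq 0.6.0, HISAT2 2.1.0, Bowtie2 2.2.3 and TopHat2 beside DESeq and DESeq2, without saying what each did. Poly(A) libraries were made from total RNA, per the labels' protocols. Counts were fitted with edgeR 4.0.16 (R 4.3.3): default low-count filter, TMM factors, the quasi-likelihood test, two-sided, and Benjamini-Hochberg adjustment over 18444 genes at 0.05. DESeq2 1.42.0, run on the same genes, left 54 without an adjusted p, and limma 3.58.1 (voom) was a further alternative. Log2 CPM used a prior count of 2. For edgeR a standard error is the size of the log2 fold change over the root of its F statistic, and for limma over its t statistic. DESeq2 gives its own. Exact permutation tests used scipy 1.17.1. Gene models, lengths and UTRs came from GENCODE M21 (GRCm38), which holds 31251 of the gene IDs. The fits were checked on simulated counts. Recovery was required there only for fold changes larger than those of the members, at less spread than in these data. The members and gene lists were chosen with earlier results of these data known. All 6 members are named. Of each list the 3 tested genes with the smallest p are named, plus Cdh1, Vim, Omp and the miR-200 loci, and for each member the 3 genes most like it. A gene that this rule names among the related factors is not reported here. Crb3, Snai3, Cdh2, Spock1, Itga5, Grhl1, Llgl2, Ctbp1, Smarca4, Id1, Id2 and D10Wsu102e were named after their values were seen.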

Additional observations from a re-analysis of the deposited data

How the results depend on the processing

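The number of genes past the threshold was 0 in edgeR, 347 in DESeq2 (151 higher, 196 lower), and 3 in edgeR without both KD-2 and NC-1, where Zeb2 had adjusted p = 0.17. It stayed at 0 in the other alternatives tried, including each library left out in turn (range 0 to 0). Zeb2 was above 0 in all of its alternatives, with log2 fold changes of 0.998 to 1.32 when 1 library was left out, and was past the threshold only in DESeq2 (1.12). Zeb1 turned to -0.045 with library totals alone. Snai1 and Snai2 turned to -0.23 and -0.064 with the fibroblast covariate. Twist1 turned to -0.016 with RLE factors, -0.14 with library totals alone, -0.016 in DESeq2, and, in alternatives added after the data were seen, -0.062 and -0.0035 with the macrophage and endothelial covariates. With 1 library left out Twist1 ran from -0.080 to 0.087. The cause of these turns was not tested. Same-numbered KD and NC libraries deviated from their group means with correlations of 0.31, 0.10 and -0.26, and differently numbered ones with -0.35 to 0.35. The labels do not say that the numbers pair the libraries, and these values cannot settle it. With the replicate block 0 genes passed, and the log2 fold changes were 1.13 for Zeb2, 1.22 for Snai1, 0.53 for Snai2, 0.11 for Zeb1 and 0.0053 for Twist1. The ratio without pseudocount could not be computed for Twist2, which has a library with 0 counts.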
